A study of Mus musculus with 6 samples.

Results

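Aminoacyl-tRNA synthetases are the enzymes that join each amino acid to its transfer RNA (tRNA), the step that supplies charged tRNAs to the ribosome. The genes were picked by the form of their mouse symbols, a rule that uses no measured values. The family itself was chosen with earlier results of these data known. By the rule, 38 genes were found among the 18753 annotated gene identifiers listed in any library. They comprise 19 genes for cytosolic enzymes, 17 for mitochondrial enzymes and 2, Gars and Kars, whose transcripts give both a cytosolic and a mitochondrial form and which are counted apart. Oligodendrocyte progenitor cells (OPCs), the glial precursors of myelinating oligodendrocytes, came from the cortex of wild-type C57BL/6 mouse pups labelled postnatal day 1 and were isolated with magnetic beads against CD140a (PDGFRα). After 3 days of expansion, the 3 vehicle samples received 0.25% DMSO and the 3 hemin samples received 50 µM hemin, the oxidised form of heme, for 12 h. By its title, the series concerns ferroptosis (cell death that depends on iron) and white matter damage after bleeding in the brain. Nothing in the labels says that replicates came from separate litters or cultures, and p-values therefore reflect the spread among these 6 samples, possibly a technical one.

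In animal cells the cytosol and the mitochondrion translate separately, and most amino acids have a separate nuclear gene for the enzyme of each compartment. Several cytosolic enzymes sit together in the multi-synthetase complex on scaffold proteins. Many cytosolic synthetase genes are known targets of ATF4, the transcription factor whose translation rises when the initiation factor eIF2 is phosphorylated. That phosphorylation is the trigger of the integrated stress response, and its kinases include one that responds to low heme and one that responds to uncharged tRNA. The synthetases fall into class I and class II by the fold of their catalytic domain.

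The letters at some gene starts are shown first, as a description, and their part in the changes below was not tested. ATF4 and its C/EBP partners are known to bind a composite element whose core can be written TGATGNAA. Promoter windows of 250 bases before to 50 bases after the start were taken from RefSeq for build GRCm38.p6, where 28 members have an entry. Cars, Hars, Hars2, Lars, Nars, Pars2, Rars, Vars and Wars are among those that have none there. The core was searched on both strands, as TGATGNAA or TTNCATCA, and found in 5 members. For each of these, 1 match stands in a window of 30 bases, 5′ to 3′ on the strand of the gene, with the match in capitals.
Aars: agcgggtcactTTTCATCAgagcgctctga
Gars: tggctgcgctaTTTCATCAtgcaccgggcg
Iars: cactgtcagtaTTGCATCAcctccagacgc
Tars: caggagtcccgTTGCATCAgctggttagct
Yars: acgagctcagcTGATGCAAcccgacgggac

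The window of Aars is chr8:111033840-111033869, plus strand, with a match from base 10 of the first exon. The window of Gars is chr6:55037960-55037989, plus strand, with a match that begins 30 bases upstream. That of Tars is chr15:11399655-11399684, minus strand, with a match that begins 15 bases upstream. The matches of Iars (chr13:49682126-49682155, plus strand) and Yars (chr4:129189895-129189924, plus strand) begin at bases 8 and 4 of the first exon.

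All 5 genes with a match passed the test as higher with hemin, as described below. Among members with an entry, a match stood in 5 of the 8 that rose, with Eprs, Farsb and Sars as the other 3, in 0 of the 3 that fell and in 0 of the 17 that did not pass. By place, 5 of 14 cytosolic or dual members and 0 of 14 mitochondrial members had a match. Of all 32851 windows given by RefSeq, 3.97% held one, and by gene it was 2.64% of the genes tested and 4.01% of all genes that rose. Another motif, TGACNNNGC, which was added after the values were seen and is the core of the antioxidant response element bound by NRF2, was found on either strand (as TGACNNNGC or GCNNNGTCA) in 6 of the 28 members, 2 of the 8 that rose among them. By gene, that is 21.4% of the members and 25.0% of those that rose, beside 17.0% of all genes tested and 22.0% of all genes that rose, and 12.4% of all windows held it. Matches are descriptions of letters and were given no test.

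Expected counts over annotated genes summed to between 6339966 and 6523639 per library, and every one of the 38 members had counts in all 6 libraries and passed the filter on low counts. Across the 12783 genes fitted by edgeR (quasi-likelihood F test), 31.9% had a Benjamini-Hochberg p below 0.05, with 16.2% higher and 15.7% lower with hemin, so a member that passes is not by itself unusual. Levels are given as FPKM, fragments scaled by transcript length and by library size. The summed FPKM of 13 OPC markers, all of them listed, was 1198.1 to 1465.6 with vehicle and 350.8 to 527.7 with hemin, and 11 of the 13 fell. With hemin the OPC sum thus overlapped that of the astrocyte markers, though sums over different genes do not measure shares of cells. The 12 microglia markers summed to 15.4 to 26.4 and 42.0 to 46.8 FPKM, and the 10 endothelial and pericyte markers to 5.6 to 10.5 and 11.5 to 18.4 FPKM. The 10 astrocyte markers summed to 526.6 to 609.1 FPKM with vehicle and 417.1 to 555.6 with hemin, the 13 neuron markers to 208.2 to 244.2 and 197.4 to 207.4, and the 9 listed of 10 oligodendrocyte markers to 42.2 to 69.2 and 31.0 to 44.8. These sums hide opposite changes. Of the 13 neuron markers 2 rose and 4 fell, with Nefm up 12.4-fold and Neurod6 down 16.2-fold. Among the 10 astrocyte markers 1 rose and 5 fell. For microglia 3 of 9 tested markers rose and 0 fell, for endothelial cells and pericytes 3 of 7 rose and 0 fell, and for oligodendrocytes 0 of 5 rose and 2 fell. Mog was listed in no library, and Mobp stood at 0 in every vehicle library. These changes move with the treatment and so with each result below, and their part in the results was not tested. In bulk RNA, fewer cells of a type and less RNA per cell cannot be told apart.

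With hemin, most cytosolic synthetase genes rose, whereas the mitochondrial genes that passed the test all fell. Of the 19 cytosolic genes, 11 rose, 1 fell and 7 did not pass. Of the 17 mitochondrial genes, 0 rose, 4 fell and 13 did not pass. Gars rose and Kars did not pass. Without hemin replicate 1 the split over all 38 members was 13 higher and 10 lower in place of 12 and 5, and without vehicle replicate 1, 2 or 3 it was 9, 9 and 10 higher and 3 lower each time. The median log2 fold change was 0.79 over the cytosolic genes and -0.42 over the mitochondrial genes, beside 0.002 over all genes tested. Without hemin replicate 1 these medians were 0.56 and -0.59, and without hemin replicate 3 they were 0.91 and -0.28. The mitochondrial median thus moved down or up depending on which of these hemin libraries was left out. Scaled by library totals alone, the cytosolic and mitochondrial medians were 0.69 and -0.52. The shares called among all genes, 16.2% higher and 15.7% lower, are the background for these counts. The groups' FPKM did not overlap for 29 of the 38 members, beside 49.1% of all genes tested. The FPKM of the hemin libraries lay entirely above those of vehicle for 13 of the 19 cytosolic genes, where 21.5% of all genes tested did so, and entirely below for 11 of the 17 mitochondrial genes, where 27.6% did.

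**Figure D1:**
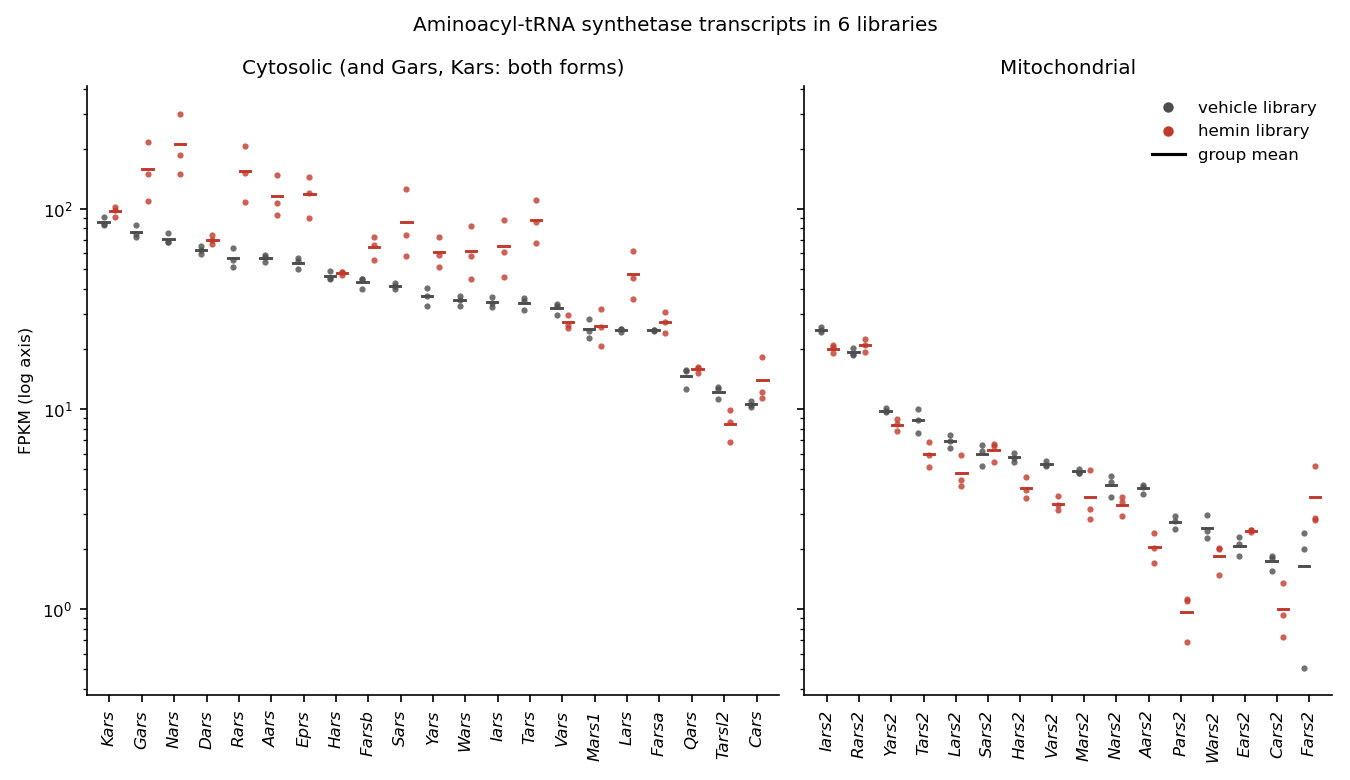
FPKM of 37 of the 38 synthetase genes on a log axis, cytosolic and dual-form genes on the left and mitochondrial genes on the right, in order of the vehicle mean. Grey points are the 3 vehicle libraries and red points the 3 hemin libraries, with a bar at each group mean. Red points stand clear above grey for genes such as Nars, Rars and Tars, and below for Aars2 and Pars2.

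Summed over members, the cytosolic transcripts stood at 697.8 to 743.6 FPKM in the vehicle libraries and at 1652.8, 1251.9 and 1033.9 FPKM in hemin replicates 1 to 3. The mitochondrial sum was 115.0 to 117.1 FPKM with vehicle and 98.7, 97.6 and 88.9 with hemin. Neither pair of groups overlapped, and the sums lay on opposite sides of their vehicle levels. FPKM is scaled by library size, without the further scaling between libraries used in the fit. Scaled by library totals alone, the median log2 fold change over all genes tested was -0.088 in place of 0.002. The part of this scaling in the sums was not tested. Gars and Kars together gave 155.6 to 173.6 FPKM with vehicle and 308.0, 248.8 and 211.2 with hemin. All 38 genes together held 0.388% to 0.417% of the expected counts of a vehicle library and 0.835%, 0.626% and 0.519% of those of the hemin libraries.

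The greatest rises were in the enzymes for asparagine, arginine and threonine. Nars (gene identifier 70223 in the files), which charges asparagine tRNA, measured 68.6, 68.6 and 75.8 FPKM in the vehicle libraries against 299, 186 and 149.8 in the hemin libraries. Every hemin library lay above the highest vehicle library, and the log2 fold change was 1.64 ± 0.26 (SE, n = 3 per group, edgeR adjusted p = 0.00383), a 3.12-fold rise. Its transcripts of 2663 and 2660 bases kept similar shares, with the longer at 64.3% to 69.7% of the gene's counts with vehicle and 63.3% to 67.7% with hemin. Rars (104458), the arginine enzyme and a member of the multi-synthetase complex, measured 51.2, 55.4 and 64.2 FPKM in the vehicle libraries against 206, 151 and 108 in the hemin libraries. The groups did not overlap and the rise was 2.84-fold (log2 fold change 1.51 ± 0.25, edgeR adjusted p = 0.0042). Tars (110960), the threonine enzyme whose start is shown above, measured 31.2, 34.7 and 35.9 FPKM in the vehicle libraries against 111, 86.0 and 68.0 in the hemin libraries, again without overlap. It rose 2.71-fold (log2 fold change 1.44 ± 0.20, edgeR adjusted p = 0.00226).

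Eprs (107508) encodes a fused enzyme that charges both glutamate and proline tRNAs and so joins a class I and a class II domain. It measured 55.0, 50.3 and 56.8 FPKM in the vehicle libraries against 145, 120.2 and 90.6 in the hemin libraries, a 2.28-fold rise (log2 fold change 1.19 ± 0.18, edgeR adjusted p = 0.00349). Aars (234734), the alanine enzyme with a match in its first exon, measured 57.5, 54.2 and 59.1 FPKM in the vehicle libraries against 148, 107 and 93.8 in the hemin libraries. It rose 2.13-fold (log2 fold change 1.09 ± 0.18, edgeR adjusted p = 0.00488). Gars (353172), the glycine enzyme of both compartments, measured 74.6, 72.4 and 82.9 FPKM in the vehicle libraries against 216, 149.6 and 109 in the hemin libraries. It rose 2.16-fold (log2 fold change 1.11 ± 0.25, edgeR adjusted p = 0.0136), and as the files name 1 transcript for it, the forms for the cytosol and the mitochondrion cannot be told apart. In each of these 3 genes hemin replicate 1 was the highest library and replicate 3 the lowest hemin library, still above every vehicle library.

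The other 6 that rose charge serine, leucine, isoleucine, tryptophan, tyrosine and phenylalanine. Sars (20226), the serine enzyme, measured 42.7, 39.8 and 41.1 FPKM in the vehicle libraries against 125.5, 74.4 and 58.3 in the hemin libraries. It rose 2.18-fold, from 41.2 ± 1.45 to 86.1 ± 35.1 FPKM (SD, n = 3), with an edgeR adjusted p of 0.0197 that became 0.0545, 0.0604 and 0.0507 without vehicle replicates 1, 2 and 3. Lars (107045) and Iars (105148), for leucine and isoleucine, both belong to the multi-synthetase complex. Lars went from 25.2, 25.2 and 24.2 FPKM to 61.7, 45.4 and 35.4, and Iars from 32.5, 34.1 and 36.5 FPKM to 88.4, 61.2 and 45.6. The groups of neither gene overlapped, and the rises were 1.99-fold and 1.98-fold. The adjusted p of Lars was 0.0104 and that of Iars 0.019 in edgeR, the latter lost without vehicle replicate 1 or 2 (0.0612 and 0.057). Wars (22375), the tryptophan enzyme, measured 36.9, 32.7 and 35.2 FPKM in the vehicle libraries against 82.6, 58.2 and 44.6 in the hemin libraries. It rose 1.81-fold from 34.9 ± 2.13 to 61.8 ± 19.2 FPKM (edgeR adjusted p = 0.0247), and the call was lost without vehicle replicate 1, 2 or 3 (0.0584, 0.0739 and 0.0561), and also without hemin replicate 2 (0.0537). A Wars transcript of 1842 bases stood at 0 in the vehicle libraries, where a transcript not listed also counts as 0. It had 79.55, 58.27 and 17.89 expected counts in hemin replicates 1 to 3, 3.9%, 4.1% and 1.6% of the gene. The transcript of 2831 bases held the greater part in every library. Yars (107271), the tyrosine enzyme with a match in its first exon, rose 1.73-fold, from 36.9, 32.8 and 40.3 FPKM to 72.3, 58.7 and 51.6 (edgeR adjusted p = 0.00965). Farsb (23874), the beta subunit of phenylalanine-tRNA synthetase, rose 1.56-fold, from 44.9, 39.8 and 44.5 FPKM to 72.6, 66.1 and 55.8 (edgeR adjusted p = 0.0103). The lowest hemin library was above the highest vehicle library in all 6 of these genes. Exons of Yars overlap, on the opposite strand, those of C77080, which rose from 1.31 ± 0.226 to 2.09 ± 0.326 FPKM.

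The partner of Farsb did not pass. Farsa (66590), the alpha subunit of the same enzyme, measured 24.7, 24.6 and 24.9 FPKM in the vehicle libraries against 23.9, 27.2 and 30.4 in the hemin libraries, with overlapping groups (log2 fold change 0.18 ± 0.11, edgeR adjusted p = 0.235). The difference between the subunits was not tested. The other cytosolic genes that did not pass were Cars, Dars, Hars, Mars1, Qars and Vars, with log2 fold changes from -0.18 (Vars) to 0.46 (Cars) and edgeR adjusted p-values from 0.0845 to 0.678. Dars (226414), the aspartate enzyme of the multi-synthetase complex, went from 59.7, 62.7 and 65.2 FPKM to 66.5, 74.4 and 70.3, and Cars (27267), the cysteine enzyme, from 10.4, 11.0 and 10.2 FPKM to 18.3, 12.2 and 11.3. Neither pair of groups overlapped, though the gaps were narrow. Qars (97541), for glutamine, had overlapping groups at 12.7, 15.6 and 15.7 FPKM (vehicle) and 15.2, 16.1 and 16.3 FPKM (hemin), as did Vars (22321), for valine, at 32.6, 33.7 and 29.5 FPKM (vehicle) and 29.7, 25.4 and 26.3 FPKM (hemin). Vars was called lower without hemin replicate 1 (edgeR adjusted p = 0.0352). Kars (85305), the lysine enzyme and the most abundant member with vehicle, measured 84.6, 83.1 and 90.8 FPKM in the vehicle libraries against 91.7, 99.1 and 102.01 in the hemin libraries. These groups did not overlap, yet the change was small (log2 fold change 0.23 ± 0.08, edgeR adjusted p = 0.0665) and it passed in DESeq2 (adjusted p = 0.0443) and without hemin replicate 1 (0.0418 in edgeR). Hars (15115), the histidine enzyme, had the log2 fold change nearest 0 of the 38 members, with a log2 fold change of 0.10 ± 0.09 and means of 46.4 ± 2.41 FPKM (vehicle) and 47.9 ± 1.05 FPKM (hemin). Mars1 (216443), the methionine enzyme, measured 28.1, 24.5 and 22.8 FPKM in the vehicle libraries against 31.7, 25.7 and 20.7 in the hemin libraries. In GENCODE vM21 its exons overlap, on the opposite strand, those of Ddit3, a stress transcription factor that rose from 7.17 ± 1.69 to 103.6 ± 19.1 FPKM. Strandedness was not given in the sources used here, and reads of this pair cannot be assigned with certainty.

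Tarsl2 (272396), a second cytosolic threonine enzyme, was the one cytosolic gene that fell, from 11.3, 12.9 and 12.5 FPKM to 6.89, 9.91 and 8.63 (log2 fold change -0.48 ± 0.15, edgeR adjusted p = 0.0426). Its groups did not overlap, and its change was opposite in sign to that of Tars. Its exons overlap, on the same strand in GENCODE vM21, those of Tm2d3, which measured 16.1, 18.1 and 16.8 FPKM in the vehicle libraries against 12.3, 11.7 and 15.4 in the hemin libraries (edgeR adjusted p = 0.179). The part of that overlap in the fall of Tarsl2 was not tested. The call was lost without vehicle replicate 1, 2 or 3 (0.0909, 0.153 and 0.124), without hemin replicate 1 or 3 (0.0627 and 0.0887) and with only the transcripts listed in every library (0.06).

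**Figure D2:**
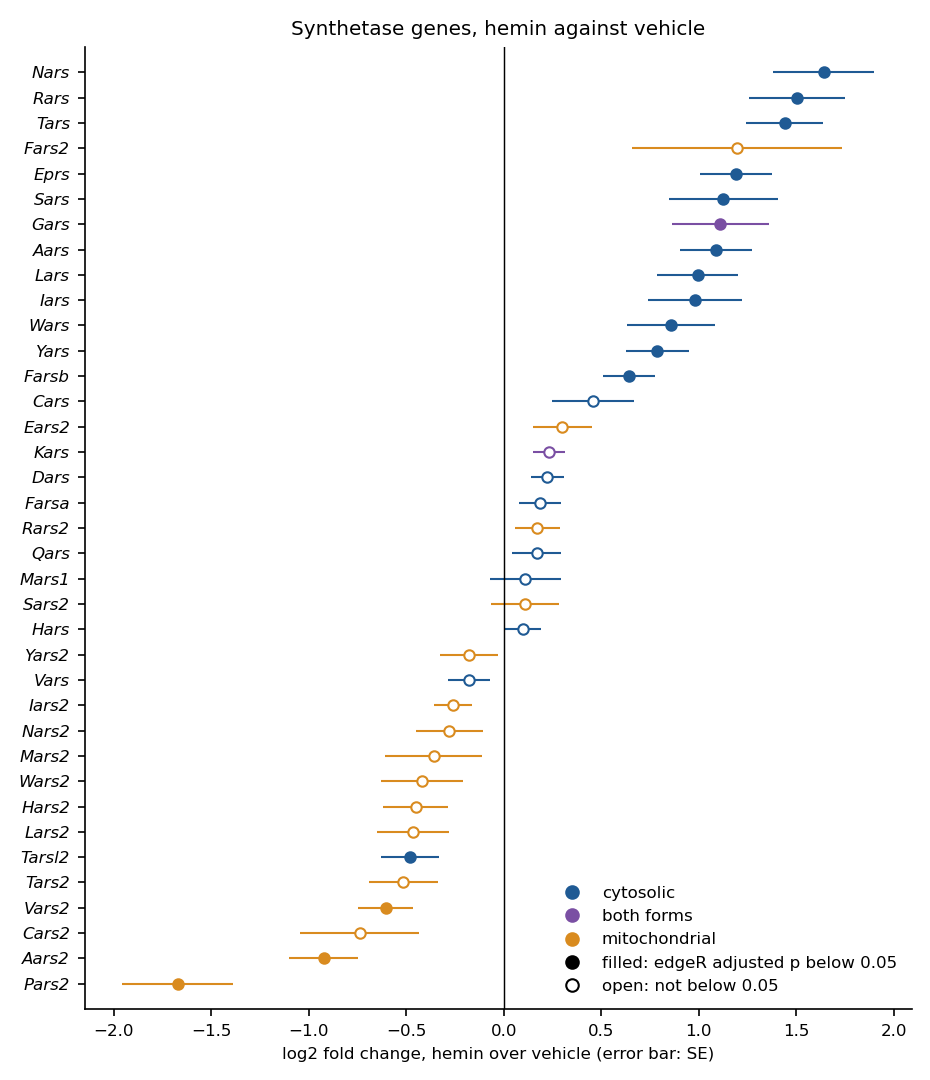
Log2 fold change of hemin over vehicle for 37 of the 38 genes, from edgeR, with the standard error as the bar. Colours give the place of the enzyme, and filled points have an edgeR adjusted p below 0.05. The 12 filled points on the right are cytosolic genes and Gars, and the 4 on the left are Pars2, Aars2, Vars2 and Tarsl2.

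The mitochondrial enzymes for proline, alanine and valine were among the 4 that fell. Pars2 (230577), which charges mitochondrial proline tRNA, had 60, 67 and 74 expected counts with vehicle and 24, 22 and 14 with hemin, or 2.53, 2.93 and 2.76 against 1.13, 1.10 and 0.690 FPKM. The groups were well apart despite the low counts, with a 3.19-fold fall (log2 fold change -1.67 ± 0.28, edgeR adjusted p = 0.00487). The authors' counting spread its reads over 4 transcripts in a pattern that changed from library to library, so only the sum over the gene is used. Pars2 has no value when only transcripts listed in every library are kept, so its fall was not checked that way. Aars2 (224805), the alanine enzyme, measured 4.19, 4.09 and 3.76 FPKM in the vehicle libraries against 1.71, 2.02 and 2.41 in the hemin libraries, a 1.90-fold fall (log2 fold change -0.92 ± 0.18, edgeR adjusted p = 0.0075). Vars2 (68915), the valine enzyme, fell 1.52-fold, from 5.27, 5.21 and 5.49 FPKM to 3.66, 3.15 and 3.30 (edgeR adjusted p = 0.0156). Its call was lost by a narrow margin without vehicle replicate 1, 2 or 3 (0.053, 0.0546 and 0.051), and also without hemin replicate 2 (0.0528).

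The 13 mitochondrial genes that did not pass had log2 fold changes from -0.74 to 1.20, below 0 in 9 of them. Tars2 (71807), Hars2 (70791), Lars2 (102436), Iars2 (381314), Cars2 (71941), Wars2 (70560) and Yars2 (70120) had hemin libraries entirely below the vehicle libraries, with edgeR adjusted p-values from 0.0603 (Tars2) to 0.399 (Yars2). Iars2, for isoleucine, was the most abundant mitochondrial member with vehicle and went from 24.8, 24.2 and 25.8 FPKM to 20.8, 20.4 and 19.1. Tars2, for threonine, went from 9.96, 8.80 and 7.59 FPKM to 6.89, 5.87 and 5.14, and Lars2, for leucine, from 7.45, 6.95 and 6.37 FPKM to 5.88, 4.14 and 4.41. Hars2, for histidine, whose exons overlap those of Hars on the opposite strand, went from 5.72, 5.44 and 6.06 FPKM to 4.59, 3.58 and 3.94. The gap between the groups was wider than the range within either group for Iars2, and narrower than the wider of the 2 ranges for Tars2, Lars2 and Hars2. Without hemin replicate 1, edgeR called 9 mitochondrial genes lower in place of 4, adding Tars2, Hars2, Lars2, Iars2 and Mars2, with adjusted p-values from 0.0111 to 0.0308. Scaled by library totals alone, 8 were called lower, and the split over all 38 members went from 12 higher and 5 lower to 12 higher and 9 lower. Nars2 and Mars2 had overlapping groups with log2 fold changes of -0.28 and -0.36. Sars2 averaged 5.98 ± 0.740 FPKM (vehicle) and 6.22 ± 0.698 FPKM (hemin), and Rars2 19.2 ± 0.883 and 20.9 ± 1.46 FPKM, both with overlap. For Ears2, the glutamate enzyme, the hemin libraries (2.48, 2.44 and 2.49 FPKM) lay above those of vehicle (1.84, 2.29 and 2.11 FPKM), and the edgeR adjusted p was 0.165. Exons of Ears2 overlap those of Ubfd1, which rose, on the opposite strand in GENCODE vM21.

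Fars2 (69955), the mitochondrial phenylalanine enzyme, differed in sign from most of its group without passing. It had 8.23, 39.25 and 32.72 expected counts with vehicle and 46.2, 84.31 and 46.06 with hemin. Vehicle replicate 1 was far below the others, and the log2 fold change of 1.20 ± 0.54 did not pass (edgeR adjusted p = 0.129).

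For 17 amino acids the cytosol and the mitochondrion use products of different genes, which allows the enzymes for the same amino acid to be set side by side. The log2 fold change of the cytosolic gene was above that of the mitochondrial gene for 16 of the 17. Eprs is the cytosolic gene for both glutamate and proline, so its value enters both of those comparisons. The gap was widest for proline, with Eprs at 1.19 and Pars2 at -1.67, followed by alanine, with Aars at 1.09 and Aars2 at -0.92, and threonine, with Tars at 1.44 and Tars2 at -0.52 (Tarsl2, left out of the pair, stood at -0.48). It was narrowest among the 16 for valine, where Vars stood at -0.18 and Vars2 at -0.61. Phenylalanine was the exception, with Farsa and Farsb at 0.18 and 0.64 and Fars2 at 1.20. On the FPKM scale, which is per length, the median ratio of the cytosolic to the mitochondrial level was 6.89 with vehicle and 13.8 with hemin. For proline the ratio of Eprs to Pars2 was 19.7 with vehicle and 122.0 with hemin, and for asparagine that of Nars to Nars2 was 16.9 and 63.6. For phenylalanine the ratio of Farsa, the less abundant cytosolic subunit, to Fars2 went the other way, from 15.1 to 7.49, and it is this ratio that enters the median. The differences between the compartments' enzymes were not tested, and all 17 comparisons rest on the same 6 libraries.

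**Figure D3:**
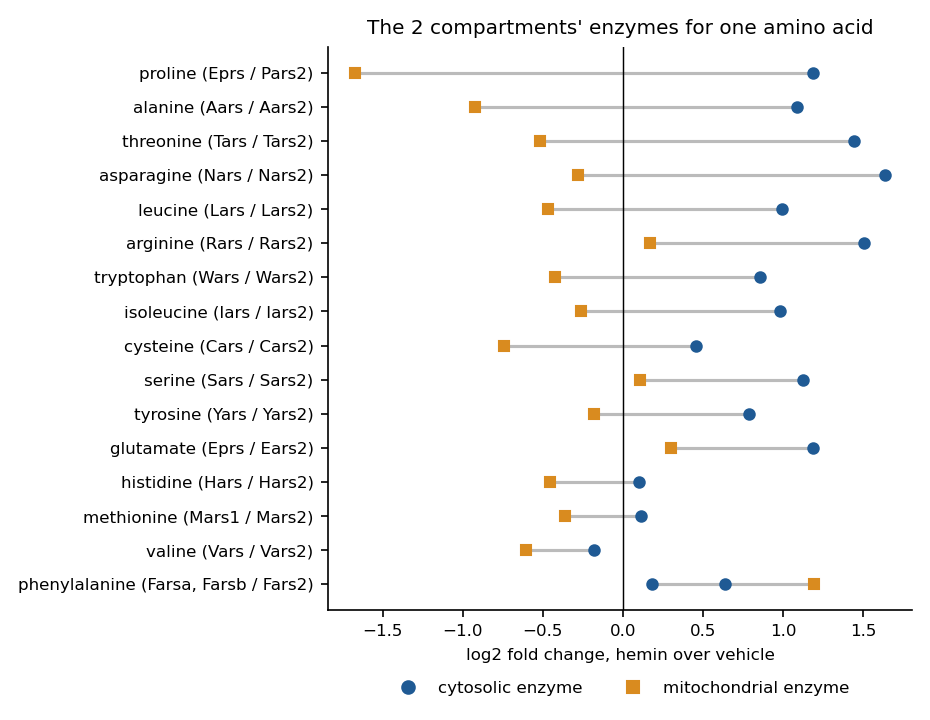
Log2 fold change of hemin over vehicle for the cytosolic (blue circles) and mitochondrial (orange squares) synthetase genes of the same amino acid, joined by a line, for 16 of the 17 amino acids. The circle lies to the right of the square for 15 of the 16 drawn, phenylalanine being the exception.

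Complex membership and catalytic class, which the choice of genes did not use, divided the calls less clearly in these counts, and the differences were not tested. Of the 8 genes of the multi-synthetase complex, 4 rose and 4 did not pass, with a median log2 fold change of 0.61. Of the 13 cytosolic or dual genes outside it, 8 rose, 1 fell and 4 did not pass, with a median of 0.79. Among cytosolic or dual genes 5 of 9 of class I and 6 of 11 of class II rose, besides Eprs, which holds both. Among mitochondrial genes 1 of 9 of class I and 3 of 8 of class II fell. Over all genes tested 16.2% rose and 15.7% fell, and no difference between the classes is read from these counts. Across the 38 genes, Spearman's rho between the vehicle FPKM and the log2 fold change was 0.65, a description over genes that share the same libraries and in which the mitochondrial genes are the less abundant.

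The hemin libraries were spread in the same order in every gene that rose. In 12 of 12, hemin replicate 1 was the highest and replicate 3 the lowest of the hemin libraries, an arrangement found in 25.1% of the 2070 genes that rose over all genes tested. The median ratio to the vehicle mean over the 12 genes was 2.64, 1.85 and 1.42 in hemin replicates 1, 2 and 3. Over the 2062 genes that rose and had a vehicle level above 0, it was 1.85, 1.77 and 1.78. Nars reached 4.22, 2.62 and 2.11 times its vehicle mean, and Wars 2.37, 1.67 and 1.28 times. The 12 genes share these libraries, so the common order is 1 observation on 3 libraries and not 12.

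**Figure D4:**
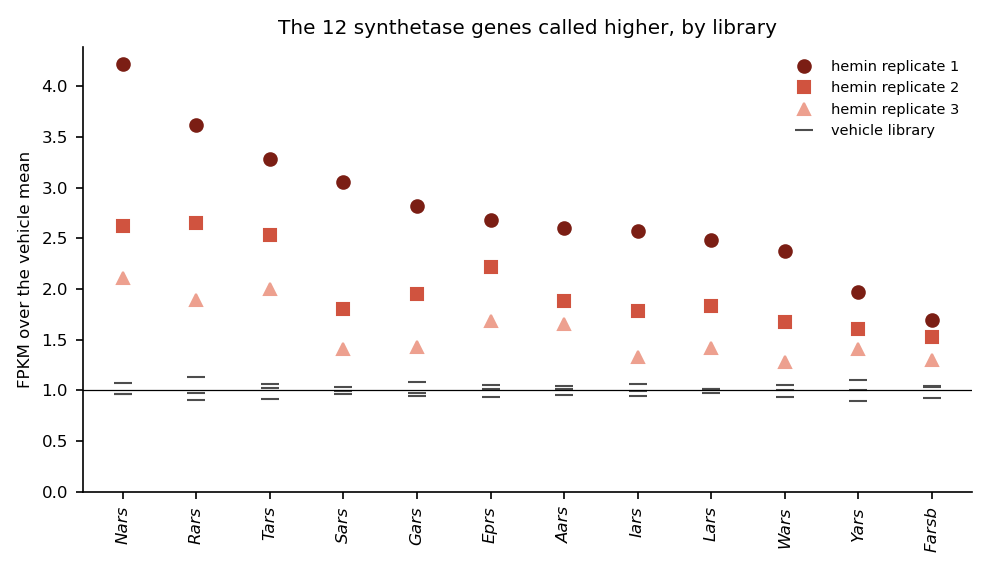
FPKM of each library divided by the mean of the vehicle libraries for the 12 synthetase genes called higher with hemin. Dashes are the vehicle libraries and the filled symbols the 3 hemin libraries. Replicate 1 is the highest and replicate 3 the lowest hemin symbol in every gene, and all lie above the vehicle libraries.

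Most genes of the ATF4 pathway outside the synthetases rose. Of 29 tested, 24 rose and 5 did not pass, beside 16.2% higher among all genes tested, with a median log2 fold change of 1.77. This list was written with results of these data known, so its direction is no independent evidence. The 4 members with the smallest p were Gdf15, a secreted stress cytokine, Ddit3, Ppp1r15a, which restores translation by reversing eIF2 phosphorylation, and Atf3, a stress-induced transcription factor. They rose 40.99-fold, 15.4-fold, 18.7-fold and 87.2-fold (edgeR adjusted p from 0.000163 to 0.0002). Hemin replicate 1 was the highest hemin library in 22 of the 24, the full order of the synthetases held in 13, and replicates 1, 2 and 3 had median ratios to the vehicle mean of 5.63, 3.83 and 4.25. Asns, the asparagine synthetase that makes the substrate of Nars, measured 53.0, 40.8 and 50.8 FPKM in the vehicle libraries against 231, 127 and 85.1 in the hemin libraries, in the same order of hemin libraries as Nars. Atf4 itself measured 57.8, 54.5 and 83.1 FPKM in the vehicle libraries against 195, 166 and 222 in the hemin libraries, where replicate 3 was the highest. Asns rose 3.21-fold and Atf4 3.09-fold (edgeR adjusted p = 0.0113 and 0.00131). Both were picked after their values were seen.

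Of 16 tested genes for eIF2, its exchange factor, its kinases and their regulators, 8 rose and 8 did not pass, with a median of 0.47. Among all genes tested, 16.2% rose. Ppp1r15a is also in the ATF4 list, so the counts of these lists are not separate. Besides Ppp1r15a, the genes of the eIF2 list with the smallest p were Impact, an inhibitor of the uncharged-tRNA sensor GCN2, Eif2s2, the beta subunit of eIF2, and Eif2ak3, the eIF2 kinase of the endoplasmic reticulum. Impact rose 4.69-fold from 14.0 ± 1.84 to 62.9 ± 10.8 FPKM, Eif2s2 2.33-fold and Eif2ak3 2.04-fold (edgeR adjusted p = 0.000334, 0.00147 and 0.00162). Eif2ak2, the kinase activated by double-stranded RNA, averaged 6.81 ± 0.390 FPKM (vehicle) and 5.54 ± 0.475 FPKM (hemin) and did not pass (adjusted p = 0.216 in edgeR). Eif2ak4, which encodes GCN2, and Eif2ak1 were also picked after their values were seen. Eif2ak4 was 3.11 ± 0.713 and 4.63 ± 1.55 FPKM (edgeR adjusted p = 0.118). Eif2ak1, the heme-regulated kinase, stood at 0 in 3 of the 6 libraries, where a gene not listed also counts as 0. It measured 0, 5.79 and 0 FPKM with vehicle and 0, 1.96 and 3.96 with hemin, and these values allow no comparison.

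Partners of the synthetases were also counted, and their difference from the synthetases was not tested. Of 13 tested scaffold, proofreading and mitochondrial charging factors, 2 rose, 1 fell and 10 did not pass, with a median log2 fold change of 0.03. Over all genes tested 16.2% rose and 15.7% fell, and nothing is read from the counts of this list. Eef1e1, a scaffold of the multi-synthetase complex, rose 1.53-fold from 41.5, 40.9 and 44.1 FPKM to 55.8, 68.4 and 61.8 (edgeR adjusted p = 0.00637). Aimp1, another scaffold, averaged 54.9 ± 5.03 FPKM (vehicle) and 64.8 ± 9.38 FPKM (hemin), with an adjusted p of 0.136 in edgeR. Prorsd1, a protein related to the proofreading domain of prolyl-tRNA synthetase, rose 1.87-fold, from 1.58 ± 0.333 to 2.84 ± 0.230 FPKM (edgeR adjusted p = 0.0298). Gatc, a subunit of the mitochondrial amidotransferase that makes glutamine tRNA, fell 1.52-fold from 22.1, 25.7 and 26.9 FPKM to 15.6, 14.2 and 17.8 (edgeR adjusted p = 0.0145).

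The shares called among genes that make and process tRNA were close to or below the 16.2% higher and 15.7% lower of all genes, and nothing is read from these counts. Of 24 tested genes of tRNA processing and export, 4 rose, 2 fell and 18 did not pass (median log2 fold change -0.005). Trmt10c, a subunit of mitochondrial RNase P, rose 2.44-fold from 11.8, 12.8 and 14.3 FPKM to 26.4, 33.1 and 32.0 (edgeR adjusted p = 0.000857). Xpot, which exports tRNA from the nucleus, rose 2.07-fold, and Elac2, which trims the 3′ end of tRNA precursors, 1.58-fold (edgeR adjusted p = 0.0092 and 0.0227). Of 22 tested genes of RNA polymerase III and its factors, 3 rose, 4 fell and 15 did not pass, with a median of -0.01. Polr3g, a variant subunit of the polymerase, rose 3.20-fold and Polr3d 1.93-fold, and the subunits Gtf3c5 and Gtf3c2 of the factor that binds tRNA gene promoters fell 1.54-fold and 1.32-fold (edgeR adjusted p from 0.000742 to 0.0138).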

How the data were processed

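RNA-seq of 3 vehicle and 3 hemin samples was analysed, grouped by title. Per the submitters' processing notes, Bowtie 0.12.2 and RSEM were used, with builds mm8 and mm9 named without a role. Per the file headers, the authors' tables of annotated transcripts hold expected counts (estimated, unscaled reads per transcript) and FPKM (scaled for transcript length and library size). Tables of unannotated features were not used. Transcripts were summed to genes, a gene not listed was set to 0, and symbols came from RefSeq's table for GRCm38.p6 (18706 of 18753 identifiers matched; 47 kept their identifier).

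Rounded counts were tested in R 4.3.3 with edgeR 4.0.16 (filterByExpr, TMM, glmQLFit and glmQLFTest, two-sided, no covariates), adjusted over 12783 genes by Benjamini-Hochberg, with calls at 0.05. The standard error is the log2 fold change over the square root of F, and the biological coefficient of variation was 0.208. The fit was also run on simulated data in which few genes changed, so that run does not test the scaling where many genes change. The filter can be passed through 1 group alone. Alternatives were DESeq2 1.42.0, limma 3.58.1 on log2(FPKM + 1) or log2(FPKM + 0.1), other scalings, no filter, transcripts listed in every library, a replicate block and leaving out each library. Members are named, and of other lists up to 4 genes with the smallest p and the largest change against the median; some genes and sequences are not reported here but stay in all counts. Members and lists were chosen with earlier results of these data known.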

Additional observations from a re-analysis of the deposited data

How the results depend on the processing

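Of 531 values of single members under 14 alternatives, 490 kept their direction and side of the threshold, 19 lost a call, 21 gained one and 1 changed sign, and 9 of the 12 rises kept their call throughout (all but Sars, Iars and Wars). Members called higher numbered 12 to 13 under the alternatives that keep all libraries. Members called lower, 5 in the main analysis, numbered 9 with library totals alone, 9 with limma on log2(FPKM + 1) and 8 on log2(FPKM + 0.1). The mitochondrial ones among them, 4 in the main analysis, numbered 8, 8 and 7. With only transcripts listed in every library, 0 cytosolic genes were lower in place of 1. Leaving out each library gave 9 to 13 members higher and 3 to 10 lower, 0 to 1 cytosolic and 3 to 9 mitochondrial genes lower, and 1110 to 2317 of all genes lower against 2006. Mars1 ranged from -0.091 (without hemin replicate 1) to 0.27. The cause of these shifts was not tested. Higher calls made up 50.8% of all calls in the main analysis and 39.9% with library totals alone, or 70.6% and 57.1% over members.

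With the replicate number as a block, 12 members were higher and 6 lower, with Tars2 added (edgeR adjusted p = 0.0456), and over all genes 1892 were higher and 1838 lower. Same-numbered samples deviated together only weakly (r = 0.0644, 0.09999 and 0.158), so the numbers were not taken as a pairing. Each sample correlated best with its own number, a hint from the data. Depth limits Cars2, Pars2, Fars2, Sars2 and Wars2 most, with at most 117 expected counts in any library. In GENCODE vM21, 10 members have exons overlapping those of another tested gene, among them Hars with Hars2, Aars with Exosc6 and Mars1 with Ddit3.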
